A study of Mus musculus with 6 samples.

Results

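The small proline-rich (Sprr) genes of embryonic mouse skin were examined in 3 Tcfap2c mutant and 3 control samples, all taken at embryonic day 16.5. Every probe set that the array's annotation assigns to exactly 1 of 10 named Sprr genes was taken. These were 7 probe sets for 7 genes (Sprr1a, Sprr1b, Sprr2d, Sprr2f, Sprr2h, Sprr2i and Sprr3), among 45101 probe sets and 18193 genes measured in all. Sprr2b, Sprr2e and Sprr4 were not analysed here. The probe set of Sprr2h carries the suffix _s_at, which marks probes that can match transcripts of several genes, and no member's probe set carries _x_at.

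Tcfap2c, now Tfap2c, encodes the transcription factor AP-2 gamma. The labels name the mutant skin by this gene only, without the allele, the part of the gene altered, or any promoter or Cre line, and give no strain. Control skin is named without a mutation in titles and source names, although the description of those samples repeats the mutant wording. Epidermis is named in the series title but skin in the labels. Litters are not given, so the p-values cover only how these 6 samples vary.

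Small proline-rich proteins are short proteins rich in proline, glutamine and lysine. Transglutaminases join them to loricrin, involucrin and each other as cross-bridges of the cornified envelope, the insoluble shell that replaces the membrane of the outermost epidermal cells. The genes lie side by side in the epidermal differentiation complex, next to the filaggrin, loricrin, late cornified envelope and S100 genes, and their RNAs are known to rise in stressed or barrier-deficient skin. In the RefSeq table for GRCm38.p6, 17 Sprr genes, 3 of them pseudogenes, lie on chromosome 3 within 284.7 kb, with the Sprr2 copies first and Sprr1b, Sprr3, Sprr1a and Sprr4 after them.

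The upstream sequences show how alike the Sprr2 genes are and how Sprr3 differs from them. The 250 bases before the annotated start are printed 5′ to 3′ for the Sprr2 member whose groups separated (Sprr2d, chr3:92338890-92339139, plus strand), the Sprr2 member with the next largest negative difference among those tested (Sprr2i, chr3:92407741-92407990, plus strand), the member that was high in 1 sample (Sprr2f, chr3:92364937-92365186, plus strand) and the member with a positive difference (Sprr3, chr3:92458721-92458970, minus strand). All are from RefSeq, build GRCm38.p6. Capitals mark matches, on either strand, to the AP-1 motif TGANTCA, the octamer ATTTGCAT and the TATA motif TATAAA, none of which overlap here.

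Sprr2d: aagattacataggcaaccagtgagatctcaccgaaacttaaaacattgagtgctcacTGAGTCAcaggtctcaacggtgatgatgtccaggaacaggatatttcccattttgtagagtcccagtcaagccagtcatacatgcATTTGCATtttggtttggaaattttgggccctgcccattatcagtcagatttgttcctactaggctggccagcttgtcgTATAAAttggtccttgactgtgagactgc

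Sprr2i: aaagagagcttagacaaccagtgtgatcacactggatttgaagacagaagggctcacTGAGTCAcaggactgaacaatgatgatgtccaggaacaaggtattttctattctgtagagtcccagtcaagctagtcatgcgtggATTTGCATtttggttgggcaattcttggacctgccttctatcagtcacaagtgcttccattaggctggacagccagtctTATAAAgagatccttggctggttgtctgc

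Sprr2f: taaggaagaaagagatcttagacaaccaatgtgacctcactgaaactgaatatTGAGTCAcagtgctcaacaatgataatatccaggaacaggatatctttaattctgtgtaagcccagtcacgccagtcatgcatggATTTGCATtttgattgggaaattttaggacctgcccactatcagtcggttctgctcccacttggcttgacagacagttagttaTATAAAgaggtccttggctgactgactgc

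Sprr3: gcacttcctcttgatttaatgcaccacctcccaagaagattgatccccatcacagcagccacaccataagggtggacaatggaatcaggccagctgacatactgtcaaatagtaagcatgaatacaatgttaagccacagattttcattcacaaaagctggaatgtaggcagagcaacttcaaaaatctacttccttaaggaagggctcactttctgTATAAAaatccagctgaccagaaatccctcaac

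Among the 10 named genes, all 10 of which had a promoter in the table, the octamer was present upstream of all 6 Sprr2 genes and of no other member. It lay 108 to 101 bases before the start in Sprr2d and Sprr2i, and 112 to 105 bases before it in Sprr2f. The octamer occurs in 1.60% of the 32851 mouse promoters of this length. TGANTCA stood upstream of 8 of the 10 members (6.75% of promoters), in all 6 Sprr2 genes and in Sprr1a and Sprr1b, and TATAAA upstream of 9 (12.4% of promoters). The AP-2 motif GCCNNNGGC had no match in these windows in any of the 10 genes and occurs in 13.7% of promoters. A match is a description of the sequence and shows no binding. The windows of 250 bases were aligned in pairs, and identity was taken over all alignment positions, gaps included. Sprr2d was identical to Sprr2e at 89.3%, to Sprr2i at 77.5%, to Sprr2f at 71.1%, to Sprr2b at 65.4%, to Sprr2h at 65.0% and to Sprr3 at 52.7%. The least alike pair among the 10 genes, Sprr1a and Sprr2e, stood at 47.7%.

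The arrays gave 1 MAS5 signal per probe set, an intensity scaled to the same trimmed mean of 500.003 on every array. Precision is limited by how few arrays there are. Markers of decidua and uterus set mutant sample 1 off from the remaining 5 samples. Of these markers 15 of 16 had a probe set and none was at 0, and their summed signal was 77995 in mutant sample 1, 4174 and 4851 in mutant samples 2 and 3, and between 4097 and 4648 in control samples. Prl8a2, a decidual hormone, had a signal of 14204 there and at most 61.2 elsewhere, and Prap1, which uterine and intestinal epithelia secrete, 32479 against at most 334.9. Xist, made from the inactive X chromosome, was 6732 in mutant sample 1 and 67.9 and 115.8 in mutant samples 2 and 3, against 5520, 6313 and 119.9 in control samples 1, 2 and 3. The skin itself was present in every array: the summed signal of 14 epidermal keratinocyte markers was 163001 to 239119 in mutant and 184592 to 221447 in control samples, and that of 8 dermal fibroblast markers 136805 to 140480 in mutant and 129487 to 147391 in control samples.

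The comparison asked which Sprr transcripts differ in skin when Tcfap2c is mutated. The brightest Tfap2c probe set read 1596, 1392 and 1247 in mutant samples 1, 2 and 3, against 1330, 1347 and 1193 in control samples 1, 2 and 3. The groups overlapped (log2 difference 0.12, limma adjusted p 0.9999), so the signal of this probe set was not lower in the samples labelled mutant. Its suffix is _s_at, so it may also match transcripts of other genes. Where the probes lie relative to the alteration is not given, so the value does not check the labels. Sprr2d lay lower in every mutant sample than in any control sample, and no other member separated the groups. Sprr3 had a positive difference that did not pass the test, Sprr1a and Sprr1b were abundant and overlapped, and Sprr2f was high in mutant sample 1 alone. Of the 7 probe sets, 6 passed the filter on low signal and were tested, and Sprr2f was not. With all 6 arrays no member passed an adjusted p of 0.05 in limma, in a fit where 0.00444% of the 22518 probe sets passed higher and 0% passed lower in mutant skin. At an unadjusted p under 0.05 there was 1 member, Sprr2d, lower in mutant skin, where 1.97% of all probe sets tested were lower and 1.45% higher at that threshold. The groups did not overlap for 1 of 6 members tested, again Sprr2d, lower in mutant skin (5.03% of probe sets tested, and 3.30% in the higher direction). Differences were negative for 5 and positive for 1 of the 6 members, and their median log2 difference was -0.24, against -0.025 over all probe sets tested, of which 55.6% were negative. In whole skin, fewer cells of a type and less RNA per cell cannot be told apart.

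**Figure D1:**
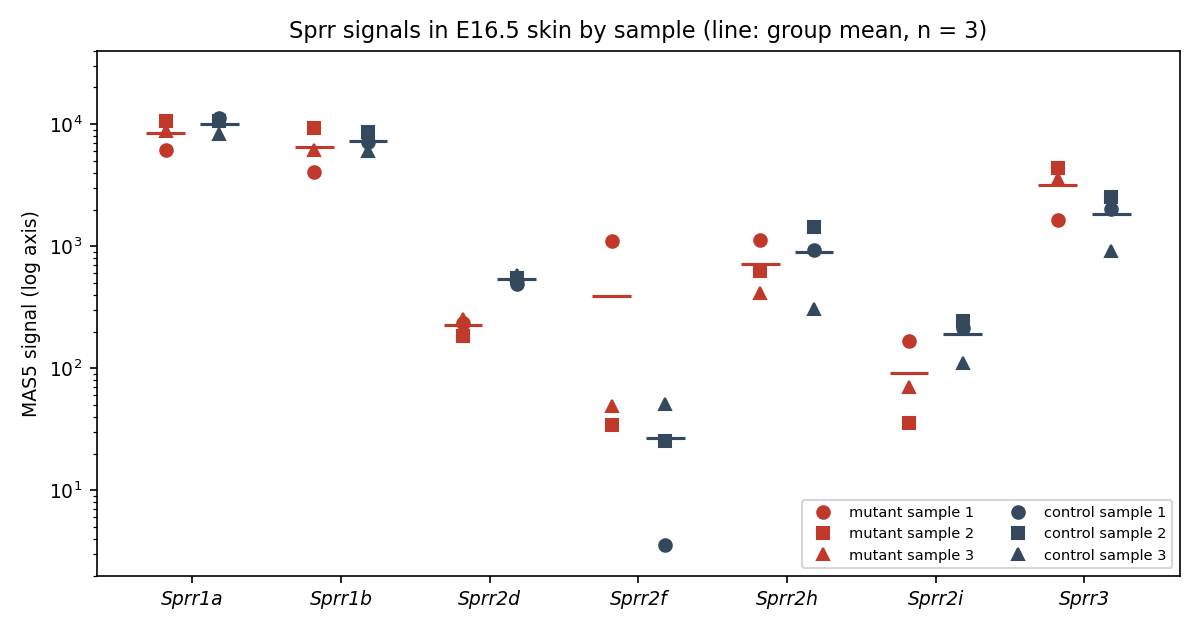
MAS5 signal (log axis) of each Sprr probe set in 3 mutant and 3 control samples, with a marker shape per sample number and a line at each group mean. Sprr2d is the member whose groups separate (at most 255.6 in mutant and at least 492.0 in control samples), and Sprr2f stands at 1097 in mutant sample 1 and at or below 51.2 in the 5 others.

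Among the transcripts of the Sprr2 genes, which encode the cross-bridging group with the most copies in the mouse, Sprr2d gave the clearest separation. It measured 235.2, 185.7 and 255.6 in mutant samples 1, 2 and 3, against 492.0, 554.6 and 582.7 in control samples 1, 2 and 3. Mutant samples averaged 225 ± 36 and control samples 543 ± 46 (SD, n = 3 per group). All 3 mutant samples lay below all 3 control samples, and the gap between the groups was wider than the range within either. The log2 difference was -1.19 (SE 0.18, 95% interval -1.60 to -0.78), a 2.28-fold lower level, with an unadjusted p of 0.000100 and an adjusted p of 0.282 in limma. Without mutant sample 1 the difference was -1.22 and the adjusted p 0.0489, with 0.0622% of probe sets called lower in that fit. With array weights, which gave mutant samples 1, 2 and 3 weights of 0.257, 0.56 and 3.13, it was -1.08 with an adjusted p of 0.0152 (0.262% of probe sets called lower). With the log2 Xist signal as a covariate the difference was -1.19 (adjusted p 0.233).

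Sprr2i, a neighbour of Sprr2d in the same cluster, had signals of 167.5, 35.4 and 69.96 in mutant samples 1, 2 and 3, against 215.9, 243.4 and 109.9 in control samples 1, 2 and 3. Mutant sample 1 lay above control sample 3, so the groups overlapped, while mutant samples 2 and 3 lay below every control sample. The difference was -0.998 (SE 0.44, 95% interval -2.002 to 0.0060, limma unadjusted p 0.0511, adjusted p 0.9999). Its mean of 7.18 on the log2 scale was just above the filter at 7.12, and without mutant sample 1 it fell short of the filter and was not tested. Without mutant sample 2 the difference was -0.61, and with the Xist covariate -0.59 (adjusted p 0.623).

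The probe set of Sprr2h is the 1 member probe set with the suffix _s_at, so its signal may hold that of other Sprr2 copies. Whether the other Sprr2 probe sets, that of Sprr2d included, also match other copies was not checked. Sprr2h gave 1120, 623.9 and 415.5 in mutant samples 1, 2 and 3, against 928.7, 1444 and 305.4 in control samples 1, 2 and 3. The groups overlapped fully, with control sample 2 highest and control sample 3 lowest of all 6. The difference was -0.17 (SE 0.52, 95% interval -1.35 to 1.02, limma adjusted p 0.9999), and the interval leaves room for a change of 1 on the log2 scale in either direction. With 1 sample left out it ran from -0.78 (without control sample 3) to 0.30 (without control sample 2). The 3 highest signals were those of mutant sample 1 and control samples 1 and 2, the arrays in which Xist was high. Among the other Sprr2 probe sets tested, the same 3 arrays were highest for Sprr2i and both probe sets of Sprr2a copies. They were not the highest for Sprr2d or Sprr2k. With Xist as a covariate the Sprr2h difference had the opposite sign, 0.33 (adjusted p 0.776). The part of Xist status in the Sprr2 values was not tested beyond the fits with that covariate.

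Sprr2f, best known in the mouse as an oestrogen-induced transcript of uterine epithelium, gave 1097, 34.4 and 48.8 in mutant samples 1, 2 and 3, against 3.57, 25.5 and 51.2 in control samples 1, 2 and 3. Mutant sample 1 alone lay above the signal of the filter, about 114.5, and the other 5 samples were too dim to be ordered or to give a fold. In mutant sample 1 the probe set ranked at percentile 85.8 of all probe sets, and elsewhere at percentile 32.2 or lower. Its mean of 6.48 on the log2 scale was below the filter, so it was not tested. With mutant sample 1 set aside, mutant samples 2 and 3 averaged 41.6 and control samples 26.8. The same array carried the decidual and uterine markers given above, and their part in the Sprr2f signal was not tested. Other markers on that list that were highest in mutant sample 1 included Pgr, the progesterone receptor, at 2719 against at most 128.2. Myh11, a smooth muscle myosin, stood at 3746 against at most 263.9, and Cnn1, Actg2, Cryab, Prl6a1 and Hoxa11 were also highest there. Ltf, the oestrogen-responsive uterine lactotransferrin, was not (117.8, against 136.8 in control sample 3). Nor were Prl3c1, Prl7b1, Foxa2, Calb1 and Spink1.

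The Sprr2 genes outside the named set overlapped between groups as well. Sprr2k had signals of 220.6, 239.2 and 162.5 in mutant samples 1, 2 and 3, against 395.9, 404.3 and 123.6 in control samples 1, 2 and 3. Its difference was -0.38 (SE 0.39, limma adjusted p 0.9999). It was -0.89 without control sample 3 (unadjusted p 0.00577, adjusted p 0.9999), -0.12 without control sample 2 and -0.11 with the Xist covariate. Of 3 probe sets annotated to more than 1 near-identical Sprr2a copy, 2 were tested, and they differed by -0.059 and -0.058 (SE 0.38 and 0.37). These were -0.57 and -0.53 without control sample 3, 0.29 and 0.28 without control sample 2, and 0.26 and 0.28 with the Xist covariate. The brighter had a signal of 1896, 1275 and 1283 in mutant samples 1, 2 and 3, against 1834, 2439 and 779.0 in control samples 1, 2 and 3. Control sample 3 was the lowest of all 6 arrays on both of these probe sets and on Sprr2h and Sprr2k, but the highest control for Sprr2d. The probe set of the pseudogene Sprr2j-ps was too dim to be tested, with signals of 9.002 to 52.3 in mutant and 37.9 to 96.7 in control samples.

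**Figure D2:**
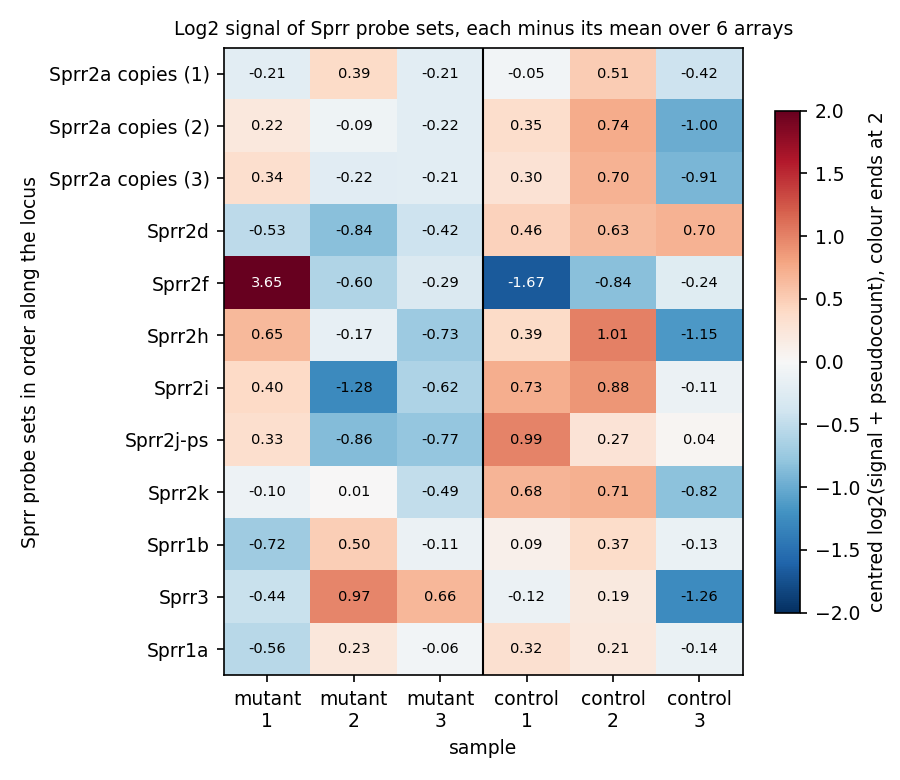
Log2(signal + pseudocount) of the 12 Sprr probe sets, each minus its own mean over the 6 arrays, in order along the locus, with mutant samples left of the line and control samples right of it. Sprr2d is negative in all 3 mutant samples (-0.84 to -0.42) and positive in all 3 control samples (0.46 to 0.70), Sprr2f is at 3.65 in mutant sample 1, and the probe sets of Sprr2a copies, Sprr2h, Sprr2k and Sprr3 are low in control sample 3.

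The Sprr1 proteins are the classic cross-bridging proteins of the envelope, and Sprr1a is also known from regenerating neurons. Sprr1a had signals of 6187, 10678 and 8724 in mutant samples 1, 2 and 3, against 11348, 10538 and 8290 in control samples 1, 2 and 3. The groups overlapped, with mutant sample 1 lowest of all 6. The difference was -0.26 (SE 0.20, 95% interval -0.72 to 0.20, limma adjusted p 0.9999). Sprr1b gave 4042, 9398 and 6155 in mutant samples 1, 2 and 3, against 7106, 8584 and 6089 in control samples 1, 2 and 3. Mutant sample 2 was the highest and mutant sample 1 the lowest of all. Its difference was -0.22 (SE 0.27, 95% interval -0.84 to 0.40, limma adjusted p 0.9999). On every array both Sprr1 probe sets ranked at percentile 96.1 of all probe sets or higher. Without mutant sample 1 the differences were -0.047 for Sprr1a (95% interval -0.38 to 0.29) and 0.081 for Sprr1b (95% interval -0.34 to 0.50). Without mutant sample 2 they were -0.44 and -0.53, each with a limma adjusted p of 0.846. Mutant sample 1 also had the lowest summed signal of the epidermal keratinocyte markers, 163001, and the part of this in the Sprr1 values was not tested.

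Sprr3, which encodes a cross-bridging protein best known from oral and oesophageal epithelium, was the 1 member tested with a positive difference. It measured 1631, 4378 and 3530 in mutant samples 1, 2 and 3, against 2038, 2533 and 911.3 in control samples 1, 2 and 3. Mutant samples 2 and 3 lay above every control sample, and mutant sample 1 lay below control samples 1 and 2. Mutant samples averaged 3180 ± 1407 and control samples 1828 ± 831 (SD, n = 3 per group), a difference of 0.80 (SE 0.43, 95% interval -0.17 to 1.76, limma unadjusted p 0.0951, adjusted p 0.9999). Without mutant sample 1 it was 1.22 (95% interval 0.46 to 1.98, unadjusted p 0.00523, adjusted p 0.404), in a fit where 3.30% of probe sets had an unadjusted p under 0.05 in the higher direction and 3.84% in the lower. Without control sample 3 the difference was 0.37 (adjusted p 0.9999), and without mutant sample 2 it was 0.51 (adjusted p 0.866). With mutant sample 1 left out the groups did not overlap for Sprr3, as for 10.8% of probe sets tested in the higher direction and 12.0% in the lower.

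Of the markers of oral and oesophageal epithelium, which also makes Sprr3, 5 had enough signal to be tested. Krt76 and Krt84 were too dim. For 7 of 8 markers with a probe set, none at 0, the summed signal was 7965, 12742 and 12803 in mutant samples 1, 2 and 3, against 12211, 12857 and 8979 in control samples 1, 2 and 3. Like Sprr3, the sum was lowest in mutant sample 1 and control sample 3, and its part in the Sprr3 values was not tested. Krt13, a mucosal keratin, differed by -0.49 and Krt4, its partner, by 0.60, and neither passed (limma adjusted p 0.9999 for both). These were -0.24 and 0.95 without mutant sample 1.

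**Figure D3:**
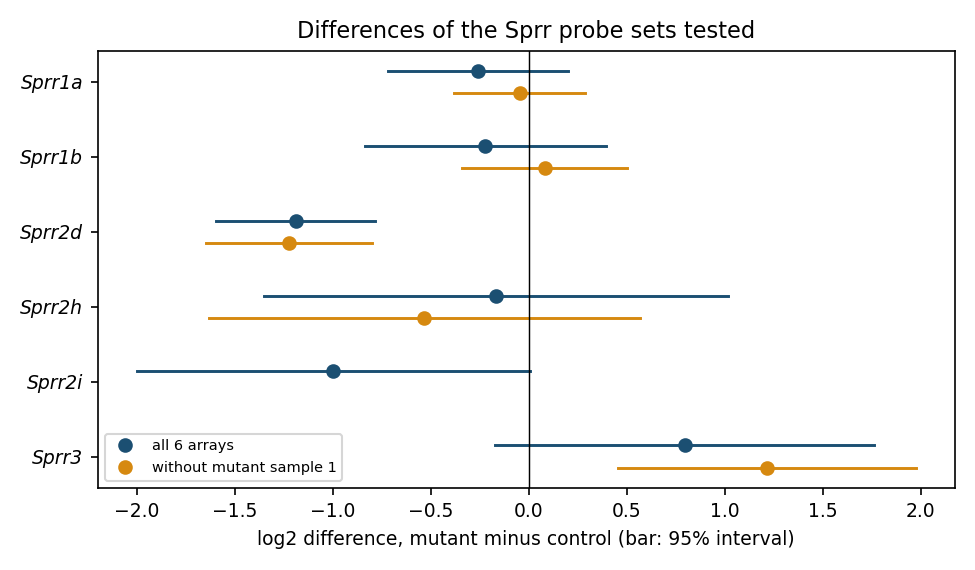
Log2 difference, mutant minus control, of the Sprr probe sets tested, with 95% intervals from limma, for all 6 arrays and without mutant sample 1 (Sprr2i is then below the filter). The interval of Sprr2d lies below 0 in both fits (-1.60 to -0.78 and -1.65 to -0.80), and that of Sprr3 lies above 0 in the second (0.46 to 1.98).

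Mutant sample 1 was the lowest mutant sample for 3 of 7 members (Sprr1a, Sprr1b and Sprr3) and the highest for 3 (Sprr2f, Sprr2h and Sprr2i). In the control group, sample 3 was the lowest for 5 of 7 members and the highest for Sprr2d. It also read highest for Sprr2f, whose control signals were too dim to be ordered. The same shares over all probe sets were not counted, so these counts only describe the members. For Sprr2h, control sample 3 was at 0.257 of the mean of control samples 1 and 2, and for Sprr3 at 0.399, whereas for Sprr1a and Sprr1b it was at 0.758 and 0.776.

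The genes nearest in pattern to the tested Sprr2 members were found by the root-mean-square difference of log2 values over the 6 arrays, each gene centred on its mean. To the mean profile of Sprr2d, Sprr2h and Sprr2i, the nearest were Pi16, a peptidase inhibitor gene (0.188), Gfra2, a neurturin receptor (0.221), and Lst1, a leukocyte transcript (0.265). Next came Rspo3, a Wnt pathway enhancer (0.269), and Tac1, the substance P precursor (0.279). Sprr2d itself departed from this mean profile, at -0.53 against 0.17 in mutant sample 1 and 0.70 against -0.19 in control sample 3. To the mean of Sprr1a and Sprr1b the nearest were P2rx1, an ATP-gated channel (0.0446), Prxl2b (0.0501), Ptgds, a prostaglandin D synthase (0.0711), Phyhip (0.0781) and Sult5a1 (0.0814). The profiles themselves had root-mean-square sizes of 0.574 for Sprr2 and 0.338 for Sprr1.

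The partners of the Sprr proteins in the envelope showed no called change with all 6 arrays. Of 16 scaffold and crosslinking genes, 13 were tested, and none passed an adjusted p of 0.05 in limma (0.00444% of all probe sets higher, 0% lower). At an unadjusted p under 0.05, 3 were lower and none higher (1.97% and 1.45% of all probe sets tested). The list's median log2 difference was -0.0027, against -0.025 over all probe sets tested, and lay between -0.15 (without mutant sample 2) and 0.076 (without mutant sample 1) with 1 sample left out. Csta1, a cystatin protease inhibitor of the envelope, had signals of 9705, 10262 and 6780 in mutant samples 1, 2 and 3, against 13792, 12934 and 13523 in control samples 1, 2 and 3. The groups did not overlap, as for 5.03% of all probe sets tested in the lower direction, and the difference was -0.61 (limma adjusted p 0.942). Calml3, a calmodulin-like protein, differed by -0.54, Tgm3, a transglutaminase that joins small proline-rich proteins, by -0.62, and Ivl, the involucrin gene, by -0.27, each with an adjusted p of 0.9999. Tgm3 differed by -0.34 and Ivl by -0.42 without mutant sample 1.

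Other genes of the epidermal differentiation complex covered a wider range of differences than the 6 Sprr genes tested, over a longer list of genes. Of 29 tested of 47 listed, 24 differences were negative and 5 positive, with a median of -0.35. With 1 sample left out the median ran from -0.61 (without mutant sample 1) to -0.20 (without mutant sample 3). None passed an adjusted p of 0.05 in limma. At an unadjusted p under 0.05, 9 were lower and 4 higher (1.97% and 1.45% of all probe sets tested), and groups did not overlap for 7 lower and 4 higher (5.03% and 3.30%). The 4 with the smallest p were Flg, the filaggrin precursor (-3.70), its relative Rptn (-1.73), and the late cornified envelope genes Lce3f (2.60) and Lce3c (2.04), with adjusted p of 0.426, 0.426, 0.571 and 0.9999. The late cornified envelope genes did not share a direction. All Lce1 genes tested had negative differences, from -1.81 to -0.24. Without mutant sample 1, limma called Flg lower (-4.64, adjusted p 0.000512) and Lce3c higher (2.71, adjusted p 0.0142), where 0.0622% of probe sets were called lower and 0.111% higher. The probe set of Lce3c carries the suffix _x_at, and several of the Lce1 probe sets carry _s_at or _x_at. These may also match transcripts of other genes.

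Transcription factors known to act on Sprr genes, among them AP-1, Ets and Klf proteins, had a median of 0.011 over 26 tested of 30 listed, and of -0.063 (without mutant sample 2) to 0.13 (without mutant sample 1) with 1 sample left out. None passed an adjusted p of 0.05 in limma, and at an unadjusted p under 0.05, 3 were higher and none lower (1.45% and 1.97% of all probe sets tested). Elf5, an Ets factor of epithelia, gave 319.4, 644.1 and 999.3 in mutant samples 1, 2 and 3, against 138.7, 331.5 and 163.2 in control samples 1, 2 and 3. Mutant samples 2 and 3 lay above every control sample and mutant sample 1 just below control sample 2, with a difference of 1.48 (limma adjusted p 0.9999). Elf3, an epithelial Ets factor known to act on SPRR genes in human keratinocytes, did not overlap (285.2, 431.0 and 498.0 in mutant samples 1, 2 and 3, against 254.0, 214.6 and 240.4 in control samples 1, 2 and 3). Its difference was 0.69 (adjusted p 0.9999), and 3.30% of all probe sets tested separated the groups in that direction. Fos, an AP-1 subunit, differed by 0.44 and Ehf, a further Ets factor, by 0.41, each with an adjusted p of 0.9999.

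Genes known, like the Sprr genes, to be induced in stressed skin included none that passed. Of 28 listed, 19 were tested, with 0 past an adjusted p of 0.05 in limma. At an unadjusted p under 0.05, 6 were lower and none higher (1.97% and 1.45% of all probe sets tested). The median was -0.087, and between -0.29 (without mutant sample 1) and 0.086 (without control sample 2) with 1 sample left out. Serpinb3a, a keratinocyte protease inhibitor, had signals of 689.6, 666.7 and 575.8 in mutant samples 1, 2 and 3, against 1160, 1291 and 1266 in control samples 1, 2 and 3. Like Sprr2d its groups did not overlap (-0.92, limma adjusted p 0.30), and it passed without mutant sample 1 (adjusted p 0.0305). Hmox1, the stress-induced haem oxygenase, differed by -1.26, the defensin Defb4 by -0.89 and the stress keratin Krt16 by -0.56, with adjusted p of 0.571, 0.9999 and 0.9999, and their groups did not overlap either (5.03% of all probe sets tested in the lower direction).

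**Figure D4:**
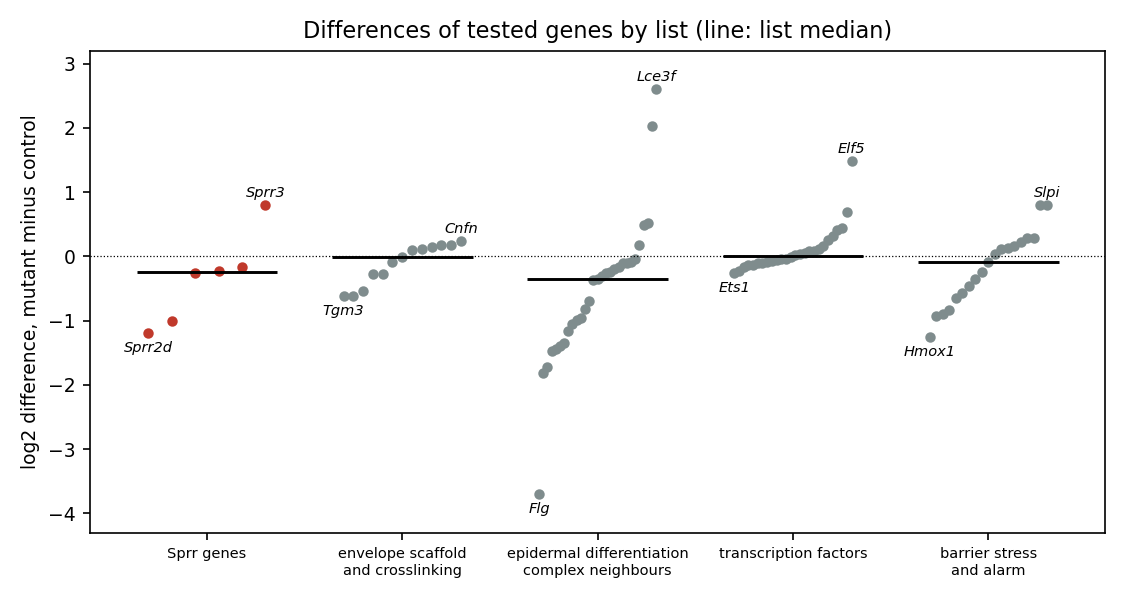
Log2 difference, mutant minus control, of each gene tested, by list, with a line at each list's median and the lowest and highest gene of each list named. The Sprr genes run from -1.19 (Sprr2d) to 0.80 (Sprr3), and the epidermal differentiation complex neighbours from -3.70 (Flg) to 2.60 (Lce3f).

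Among the marker lists, none had a gene past an adjusted p of 0.05 in limma with all 6 arrays. The medians were -0.11 for 13 epidermal keratinocyte genes tested, 0.10 for 5 oral and oesophageal genes, 1.27 for 7 decidual and uterine genes and -0.018 for 8 dermal fibroblast genes. They were -0.11 for 10 skeletal muscle genes, 0.14 for 9 leukocyte genes, -0.11 for 8 endothelial genes and 0.997 for 3 erythroid genes. At an unadjusted p under 0.05 these lists held 3 genes higher (Prap1, Hbb-y and Hba-x) and 2 lower (Cdsn and Myh8), where 1.45% of all probe sets tested were higher and 1.97% lower. Without mutant sample 1 the medians were -0.073 for the decidual and uterine list (3 genes tested), 0.12 for the keratinocyte, 0.11 for the endothelial and 0.29 for the oral and oesophageal list. The leukocyte median was 0.084 without that sample and 0.42 without mutant sample 2, and the erythroid median 0.47 without mutant sample 3. Without control sample 3 the medians were -0.051 for the oral and oesophageal, 0.016 for the fibroblast and -0.050 for the skeletal muscle list, and the fibroblast median was -0.098 without control sample 2. The keratinocyte median was -0.31 and the decidual and uterine one 2.08 without mutant sample 2.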

How the data were processed

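Skin RNA of 6 samples went to 1 Affymetrix mouse array each, with a Qiagen kit for extraction and a biotin label, per the labels' protocols. The authors deposited a MAS5 intensity for each probe set, already scaled so that all arrays share 1 trimmed mean. The version of MAS5 is not given in the sources used here, and its name comes from the submitters' processing notes. Groups were taken from the titles. Array medians of 110.4 to 131.5 limit what can be read from dim probe sets.

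The analysis used log2(signal + 24.48). This pseudocount, the 20th percentile of the whole table, shrinks differences of dim probe sets. Affymetrix controls (64 probe sets) were dropped, and the 22518 probe sets whose mean log2 exceeded the median, a signal of about 114.5, were tested. The test was limma 3.58.1 in R 4.3.3 on mutant minus control (two-sided, mean-variance trend, Benjamini-Hochberg over all probe sets tested, threshold 0.05), with 4 residual degrees of freedom, and was tested on simulated data. Figures were drawn with matplotlib 3.10.9.

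Genes were named from probe sets with 1 symbol, updated by gene identifier against RefSeq (GRCm38.p6), and list genes were represented by their brightest probe set. Named genes were the members, up to 4 genes per list with the smallest p, and the 5 genes nearest in pattern to each of Sprr1 and Sprr2. Prl8a2, Prap1 and Xist mark arrays. Tfap2c is named as the mutated gene. Pgr, Myh11, Ltf, the further decidual and uterine markers, Krt76, Krt84, the Lce1 group and genes in counts of 5 or fewer were named after their values were seen. The members and lists were chosen with earlier results of these data known. The alternatives were other pseudocounts, filters, scalings, variance models, array weights, a replicate block, other probe set choices, each sample left out, and an Xist covariate added after seeing the data.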

Additional observations from a re-analysis of the deposited data

How the results depend on the processing

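No member was called with all 6 arrays, and 1, Sprr2d, was called lower with array weights and without mutant sample 1, so leaving out 1 sample gave 0 to 1 called. The count at an unadjusted p under 0.05 was 1 with all arrays. It was 0 with the stricter filter, which removed Sprr2d. It was 2 with median centring, robust variance, the replicate block, or without _s_at, _x_at and _a_at probe sets, and 3 with array weights. Leaving out 1 sample gave 1 to 3, with 3 without mutant sample 2 (Sprr2d, Sprr1a and Sprr1b) and 2 without mutant sample 1, control sample 2 or control sample 3. Over all probe sets tested, 1.45% were higher and 1.97% lower at that threshold with all arrays. Without mutant sample 1 these shares were 3.30% and 3.84%. The shares in the other settings were not counted, so the counts there only describe the members. Envelope and complex genes called numbered 0 with all arrays and 8 with array weights, 7 lower and 1 higher (0.262% and 0.209% of probe sets). With the replicate block 1 was called higher (0.0355%), and with 1 sample left out 0 to 2, with 2 without mutant sample 1 (1 in each direction, 0.0622% lower and 0.111% higher). The median difference of the 7 genes was -0.22, with -0.44 to -0.047 when 1 sample was left out, the lowest without mutant sample 2 and the highest without mutant sample 1.

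Sprr2d stayed negative in all 18 settings in which it was tested (-1.28 to -0.99), with adjusted p between 0.0152 and 0.9999. Sprr3 was positive in all 19 (0.37 to 1.22), Sprr1a negative in all 19 (-0.44 to -0.047) and Sprr2i negative in all 15 in which it was tested (-1.30 to -0.59). Leaving out 1 sample gave -0.53 to 0.081 for Sprr1b, positive without mutant sample 1, and -0.78 to 0.30 for Sprr2h, positive without mutant sample 3 (0.16) or control sample 2. Sprr2h was also positive with the Xist covariate (0.33), which was chosen after seeing the data. None of these was past the threshold, and the cause was not tested. Same-numbered samples deviated together with correlations of -0.052, -0.073 and 0.11, which does not pair them by number, and the replicate block changed no member's call.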
